A study of Mus musculus with 3 samples.

Results

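The cells described here were the 130 female mouse germ cells at embryonic day 16.5 (E16.5) with the highest joint level of Hist1h2ap, a histone H2A gene, of Xlr5a, Xlr5b and Xlr5c, X-linked relatives of the synaptonemal gene Sycp3, and of Gstp1 and Gstp2, pi-class glutathione S-transferases. They were 130 of 5363 E16.5 cells and of 19144 cells in the series. Each gene's deposited log value was turned into a z-score over the E16.5 cells, the 6 z-scores were averaged, and the 130 cells of highest mean were taken. They are called the high-score cells below. They were set against 130 other E16.5 cells matched on the number of detected genes, and against all 5233 other E16.5 cells, the matched ones included. All groups came from 1 library of Oct4-EGFP+ germ cells sorted from fetal ovaries of C57BL/6 mice at E16.5. The libraries of E12.5 and E14.5 came from the same reporter and strain, with 1 library per stage. The number of embryos behind a library is not stated in the labels. The Oct4-EGFP reporter marks cells by fluorescence, which can outlast Oct4 (Pou5f1) RNA. Because the high-score cells were chosen by measured values within 1 library, no test was possible, and every interval below covers counting error only.

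In the fetal ovary, primordial germ cells stop mitotic division and enter meiosis under retinoic acid and BMP signals. STRA8 drives the entry programme with its partner MEIOSIN, around the last round of DNA replication before meiosis, while REC8 is loaded as the meiotic cohesin subunit. Cells then pass through leptotene and zygotene, when SPO11 makes DNA breaks and the synaptonemal complex, which includes SYCP1, SYCP3 and SYCE3, joins homologous chromosomes. Germ cells of 1 ovary do not enter meiosis at the same time, so a stage holds cells at different steps.

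The E12.5, E14.5 and E16.5 libraries held 4706, 9075 and 5363 cells, with a median of 26692, 10960 and 12659 UMIs per cell (a UMI marks 1 captured RNA molecule). Barcodes shared between libraries numbered 58 for E12.5 and E14.5, 43 for E12.5 and E16.5, and 72 for E14.5 and E16.5, and 3 of the high-score cells had a barcode also present at E14.5. The high-score cells held 2128429 UMIs in all, a median of 15601 per cell and a median of 3876 genes. The matched cells held 2084040 UMIs, a median of 14996 per cell and the same median of 3876 genes. The other E16.5 cells were shallower, with a median of 12600 UMIs and 3423 genes. When each cell was thinned to 5000 UMIs, the median number of genes was 1977 in high-score cells, 1966 in matched cells and 1952 in the other E16.5 cells.

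The cells were germ cells by their markers. Each of the 25 germ cell markers looked for was found in at least 10% of the high-score cells, and the summed level of these markers was 11488 CPM (UMIs of the gene per 1000000 UMIs of the group), against 13037 CPM in matched cells and 13805 CPM in the other E16.5 cells. Dazl, an RNA-binding protein of germ cells, had a median of 1086 CPM per high-score cell, against 856 CPM per matched cell and 845 CPM per other cell. Ddx4, the germ cell RNA helicase, had medians of 186, 155 and 149 CPM in the same order. The 19 pregranulosa markers in the table summed to 39.5 CPM in high-score cells, 27.4 CPM in matched cells and 38.6 CPM in the other cells. Of them, Gata4, Nr5a1, Kitl, Lgr5, Emx2 and Lhx9 had 0 UMIs in the high-score cells, and 1 was found in at least 10% of those cells. Markers of surface epithelium summed to 53.6, 29.3 and 37.3 CPM in high-score, matched and other cells, so the sum was highest in the high-score cells. Gng13, 1 of these markers, alone made up 31 CPM of the sum in high-score cells and 17.3 CPM in the other cells. Krt7 and Krt8 were at 0 in the high-score cells, while 2 other markers of this type were found in at least 10% of those cells. In matched and other cells, 3 and 1 such markers reached that share. Interstitial markers summed to 10.3, 17.8 and 17.4 CPM, endothelial markers to 16.4, 23.5 and 17.3 CPM, blood markers to 6.11, 5.76 and 49.6 CPM, and erythroid markers to 1.41, 9.12 and 78.1 CPM. Scrublet, a doublet caller, marked 0 high-score cells and 29 of the other 5233, of which 2 were matched cells.

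The 6 genes that chose the cells are given as a description. Hist1h2ap stood at 1530 CPM (95% interval 1478 to 1584) in high-score cells, against 310 CPM in matched cells and 203 CPM in the other E16.5 cells. Per high-score cell Hist1h2ap ran from 0 through a median of 1234 to 4173 CPM, so the choice did not require it in each cell. Xlr5a was at 148 CPM in high-score cells, 60 CPM in matched cells and 55.7 CPM in the others, while Xlr5b was at 112, 26.4 and 28 CPM and Xlr5c at 86.4, 17.3 and 16.3 CPM. Gstp1 was at 76.6, 10.6 and 8.89 CPM, and Gstp2 at 27.7, 1.44 and 1.42 CPM. All 3 families were above their E16.5 mean in 87 of the 130 high-score cells (66.9%), in 5 of 130 matched cells and in 109 of the 5233 other cells (2.08%). Scores of the chosen cells ran from 1.27 to 3.02. The 10 chosen cells of lowest score (1.27 to 1.33) had 229 CPM of Hist1h2ap, and the 10 cells just below them (1.25 to 1.27) had 946 CPM, so the boundary falls within a continuous range. By the E16.5 means and spreads, 1 of the 4706 E12.5 cells and 54 of the 9075 E14.5 cells (0.595%, 95% interval 0.447 to 0.776) reached that lowest score.

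The 6 genes were weakly related to each other across the 5363 E16.5 cells, which share 1 library and differ in depth. Pearson correlations of their log values ran from 0.02 for Gstp2 and Xlr5b to 0.14 for Xlr5b and Xlr5a. When 130 cells were chosen without Hist1h2ap, its level in them was 965 CPM, against 222 CPM in the rest, a 4.36-fold difference (4.15 to 4.57), and 97 of those cells were also high-score cells. In cells chosen without the Xlr5 genes, Xlr5a was 1.69-fold higher (1.45 to 1.95), Xlr5b 1.98-fold and Xlr5c 2.69-fold. In cells chosen without the Gstp genes, Gstp1 was 5.05-fold higher (4.06 to 6.22) and Gstp2 3.74-fold higher (2.08 to 6.28). Each family was higher in cells chosen by the other families alone, which is given as a description. The choice without the Xlr5 genes and that without the Gstp genes each shared 78 of their 130 cells with the high-score cells.

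These genes belong to families of near-identical copies, which limits what a single copy's level means. Hist1h2ap lies at chr13:21833026-21833507 in GRCm38, within a histone cluster. Of 90-base windows from the last 500 bases of its transcript, 92.5% also occur in another annotated gene. The same share was 64.3%, 85.7% and 77.4% for Xlr5a, Xlr5b and Xlr5c, which lie together on chromosome X, and 47.4% and 62.8% for the neighbours Gstp1 and Gstp2 on chromosome 19. Reads from these windows cannot be assigned to 1 copy, so the levels are best read per family.

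Away from the scoring genes, the high-score cells held more RNA of Stra8, Rec8 and Msx1, which are known from meiotic entry, and less of Spo11, Syce3 and Sycp1, which act in prophase. Of 5434 genes with at least 20 CPM over all E16.5 cells, called retained genes below, 506 (9.31%) were higher and 823 (15.1%) lower by 1.5-fold or more in high-score cells than in the other E16.5 cells. Against the matched cells, 478 genes (8.8%) were higher and 811 (14.9%) lower by that margin. Both comparisons use the same high-score cells. With median-of-ratios scaling in place of CPM the split was 628 higher and 642 lower against the other cells, and 577 and 675 against the matched cells. The median log2 ratio of all 5434 genes was -0.08 against the other cells and -0.06 against the matched cells. With the score taken from thinned cells, the counts against the other cells were 277 higher and 351 lower.

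Stra8 and Rec8 open the account because they mark the entry step itself. The 250 bases before the transcript start used for each in RefSeq (GRCm38.p6) are shown for these 2 genes, which lie on different chromosomes and were high together. Capitals mark CCAAT, or ATTGG where it lies on the opposite strand. The Stra8 stretch is chr6:34920698-34920947 and the Rec8 stretch chr14:55617916-55618165, both on the plus strand. The RefSeq gene records begin at an earlier start, at 34920163 for Stra8 and 55618002 for Rec8, so the Stra8 stretch lies within the gene record, before a start inside it, and the Rec8 stretch overlaps the beginning of its record.
Stra8: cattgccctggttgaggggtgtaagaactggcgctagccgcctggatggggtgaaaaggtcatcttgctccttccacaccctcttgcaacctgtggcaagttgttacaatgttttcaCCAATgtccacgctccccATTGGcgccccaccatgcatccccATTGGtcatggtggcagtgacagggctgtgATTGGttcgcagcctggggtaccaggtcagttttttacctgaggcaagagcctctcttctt
Rec8: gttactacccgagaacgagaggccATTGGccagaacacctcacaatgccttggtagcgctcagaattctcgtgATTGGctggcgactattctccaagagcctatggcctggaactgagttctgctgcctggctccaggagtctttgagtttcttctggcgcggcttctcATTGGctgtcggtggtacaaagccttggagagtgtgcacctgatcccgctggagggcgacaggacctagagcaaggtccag
The Stra8 stretch holds CCAAT 1 time on the strand shown and 3 times on the other, and the Rec8 stretch holds it 3 times on the other strand. Searched on both strands of the 300-base promoter table, CCAAT occurred in 7 of the 13 genes with a promoter among the 15 named higher genes (53.8%), in 9 of 13 among the 15 named lower genes (69.2%) and in 43.2% of 10543 promoters of genes in the table. CNCCTCAG occurred in 2 of 13, 1 of 13 and 11.1%, and CACGTG in 1 of 13, 1 of 13 and 11.6%. A match is a match of letters only.

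Stra8, the switch gene of meiotic entry at chr6:34920163-34939344, ran from 0 through a median of 1573 to 3841 CPM per high-score cell. Matched cells ran from 0 through 64.8 to 3935 CPM, and the other E16.5 cells from 0 through 63.3 to 3935 CPM. The ranges overlapped in full, while the medians lay far apart. Summed, Stra8 was 1602 CPM (1549 to 1657) in high-score cells, 290 CPM in matched cells and 232 CPM in the others, a 6.92-fold difference from the others (6.66 to 7.18) and 5.52-fold from the matched cells. At E14.5 it was 1439 CPM, so the level in high-score cells stood near that of the earlier library. After thinning to 5000 UMIs, 86.2% of high-score cells (79 to 91.6) held a Stra8 UMI, against 35.7% of matched cells and 36.1% of the others. Unthinned, the shares were 89.2%, 59.2% and 54.7%. In 20 E16.5 cells with at least 5 pregranulosa markers, used as a check on free RNA, 55% (31.5 to 76.9) held a Stra8 UMI at a median of 14390 UMIs. Those 20 cells were not free of germ cell RNA, since 95% held Sycp3, and 1 of them was a high-score cell. The shares of matched and other cells were near that level, and the share of high-score cells was above it.

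Rec8, the meiotic cohesin subunit at chr14:55618002-55625395, showed the largest ratio to the other E16.5 cells among the named genes. It ran from 0 through a median of 85.7 to 662 CPM per high-score cell, and its median was 0 in matched and in other cells. Summed, it was 144 CPM (128 to 161) in high-score cells, 34.5 CPM in matched cells and 14.1 CPM in the others, a 10.2-fold difference from the others (8.94 to 11.6) and 4.16-fold from the matched cells, where Stra8 had 5.52-fold and Msx1 5.4-fold. Msx1, a BMP-responsive homeobox gene, was 101 CPM, against 18.7 and 12 CPM in matched and other cells, 8.45-fold above the others (7.24 to 9.84). Zglp1, a BMP-induced factor for oogenic fate, was 70.9 CPM, against 29.7 and 19.5 CPM. Of the 15 named higher genes, 10 were under 20 CPM over all E16.5 cells, Rec8 and Msx1 among them, and so are not part of the counts of retained genes.

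**Figure D1:**
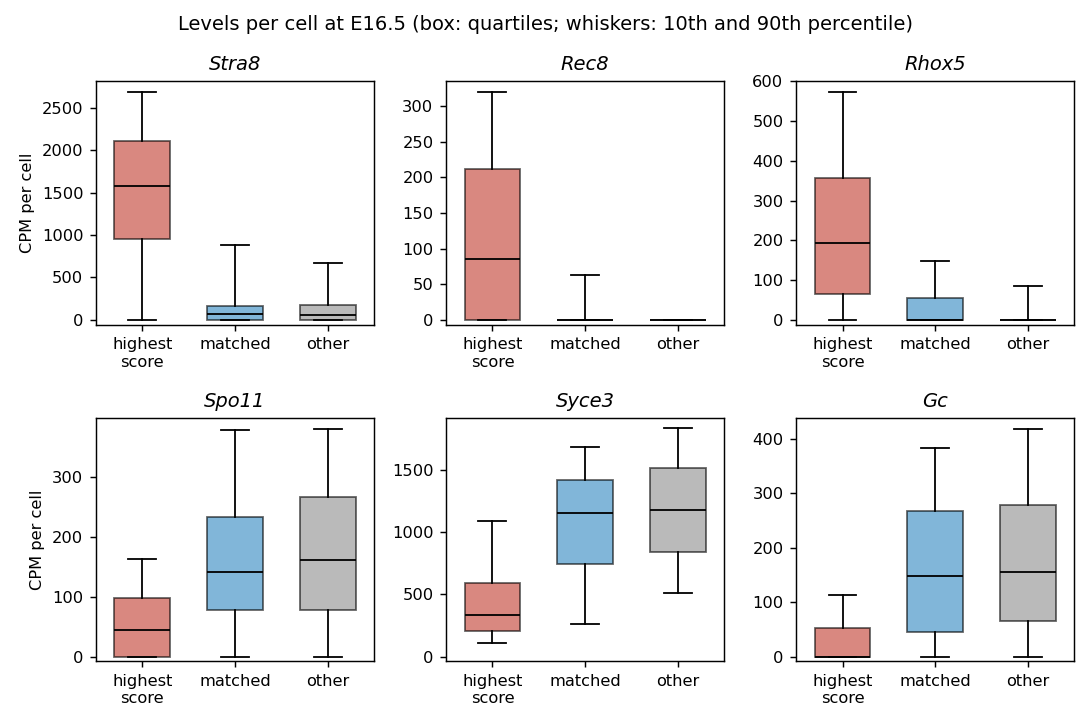
Level per E16.5 cell (CPM) of 3 higher genes (Stra8, Rec8, Rhox5) and 3 lower genes (Spo11, Syce3, Gc) in the 130 high-score cells (left), the 130 matched cells and the 5233 other cells; lines are medians, boxes quartiles and whiskers the 10th and 90th percentiles. The median of Stra8 is 1573 CPM in high-score cells, 64.8 CPM in matched cells and 63.3 CPM in the others, while the order of Syce3 is turned round, with medians of 338, 1152 and 1179 CPM.

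Genes of the earlier germ cell state stood beside them. Dppa3 (Stella), a germ cell and oocyte factor that protects DNA methylation in the early embryo, was 221 CPM in high-score cells, 114 CPM in matched cells and 38 CPM in the others, 5.81-fold above the others (5.25 to 6.41). Ifitm2, a relative of the germ cell surface gene Ifitm3, was 331, 110 and 53.6 CPM in the same order. On the pluripotency and early germ cell list, 6 genes passed the level filter. Of these, 5 were higher and 0 lower than in the other cells, beside 9.31% and 15.1% of all retained genes. The 6 had a median log2 ratio of 1.89 (0.91 against the matched cells). Dppa5a was 379 CPM, against 187 and 91.8 CPM, and Ifitm1 226 CPM, against 123 and 67.4 CPM. Of the 33 genes listed, 32 were in the table, and Pou5f1, which was below the filter, had a median of 15.5 CPM per high-score cell and 0 in both other groups.

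X-linked germ cell genes other than the scoring ones differed in both directions. Rhox5, an X-linked homeobox gene, ran from 0 through a median of 194 to 1017 CPM per high-score cell, and its median was 0 in matched and in other cells. Summed it was 289 CPM in high-score cells, 93.6 CPM in matched cells and 35.8 CPM in the others, 8.08-fold above the others (7.38 to 8.83). Of 24 retained genes of the Xlr and X-linked germ cell list, 8 were higher and 6 lower than in the other cells. The shares of all retained genes were 9.31% and 15.1%, and the median log2 ratio of the list was 0.35. The 8 were Rhox1, Rhox2a, Rhox5, Rhox6, Rhox9, Xlr3b, Xlr3c and Xlr4b, and the 6 were Pet2, Sycp3, Tex16, Tktl1, Rbm3 and Usp26 (Sycp3 is on the list as a relative and is not X-linked). Xlr3c was 93.5 CPM, against 32.6 and 24 CPM, and Xlr3b 111 CPM, against 29.7 and 35.3 CPM. These copies share sequence with their relatives, as the Xlr5 genes do. The 493 X-linked genes without the scoring genes held 4.38% of UMIs in high-score cells, 4.17% in matched cells and 4.15% in the others.

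Of 27 retained S phase genes, 14 were higher and 0 lower than in the other cells, beside 9.31% and 15.1% of all retained genes, and 13 were within the margin, with a median log2 ratio of 0.78 (0.63 against the matched cells). Their summed level was 3904 CPM in high-score cells, 2729 CPM in matched cells and 2603 CPM in the others. Tk1, thymidine kinase, was 69.5 CPM, against 13.9 and 9.76 CPM, 7.12-fold above the others (5.92 to 8.52). Mcm7, a helicase subunit, was 70.5 CPM, against 36.5 and 20 CPM, and Lig1, DNA ligase 1, was 374 CPM, against 286 and 306 CPM, and Rfc4, a clamp loader subunit, 269 CPM, against 305 and 319 CPM, both within the 1.5-fold margin. Ccnd1, the G1 cyclin D1, was 78.5 CPM, against 20.6 and 9.5 CPM. The list of G2 and mitosis genes differed less, with 6 of 28 higher, 1 lower and a median log2 ratio of -0.07; Cenpa, the centromeric histone, was 107 CPM, against 48.5 and 26 CPM. Dnmt1, which keeps DNA methylation after replication, was 132 CPM, against 53.7 and 45.4 CPM, and 3 of 21 genes on its list were higher and 0 lower.

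Of the replication-dependent histone genes, 54 were in the table and 3 passed the filter. Hist1h4i was 21.6 CPM, against 49.4 and 59.2 CPM, Hist1h4c was 7.52 CPM, against 25 and 24.1 CPM, and Hist1h1e was 26.8 CPM, against 15.8 and 21.4 CPM. The median log2 ratio was -1.45 over these 3 and turned to 0.30 over all 54 without the filter. Summed without Hist1h2ap, the list came to 265 CPM in high-score cells, 255 CPM in matched cells and 283 CPM in the others. The library captures poly(A) RNA, and most transcripts of replication-dependent histone genes carry no poly(A) tail. Histone variants and chaperones had 3 of 20 genes higher and 2 lower, beside 9.31% and 15.1% of all retained genes. H1f0, a linker histone of non-dividing cells, was 66.2 CPM, against 177 and 171 CPM.

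Metabolic genes differed by pathway, and the counts are given beside 9.31% of all retained genes higher and 15.1% lower. Of 8 retained glycolysis genes, 6 were higher and 0 lower than in the other cells, with a median log2 ratio of 1.05. Gapdh was 456 CPM, against 215 and 143 CPM, and Ldhb, a lactate dehydrogenase subunit, 77.5 CPM, against 29.7 and 19.4 CPM. Of 57 genes of oxidative phosphorylation, 4 were higher and 1 lower, with a median of 0.04; the lower gene was Ndufa1, a complex I subunit, at 972 CPM, against 2356 and 2468 CPM. Of 21 genes of glutathione and redox defence other than the Gstp pair, 7 were higher and 2 lower, with a median of 0.20. Prdx2, a peroxiredoxin, was 161 CPM, against 67.2 and 34.3 CPM, whereas Prdx1 was 1103 CPM, against 1343 and 1275 CPM. Ucp2, a mitochondrial carrier, was 60.1 CPM, against 13.4 and 8.2 CPM, and Gcat, a threonine-degrading enzyme, 59.2 CPM, against 17.8 and 9.51 CPM.

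The remaining named higher genes came from several functions. Psme1 and Psme2, the PA28 alpha and beta subunits that activate the proteasome, were 101 CPM, against 25 and 17.2 CPM, and 141 CPM, against 42.2 and 23.6 CPM. The proteasome list as a whole had 4 of 31 genes higher and 0 lower, beside 9.31% and 15.1% of all retained genes. Its median was 0.15. Sct, the hormone secretin, was 65.3 CPM, against 8.67 CPM in the other cells, a 7.53-fold difference, and it was 3.4-fold above the matched cells. Syne4, a nuclear envelope linker, was 55.4 CPM, against 13.4 and 9.82 CPM, and Grn, progranulin, 51.2 CPM, against 24.5 and 9.09 CPM.

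Some genes of the synaptonemal complex were lower in the high-score cells. Of 17 retained genes of this list, 0 were higher and 5 lower than in the other cells, beside 9.31% and 15.1% of all retained genes, with a median log2 ratio of -0.39. The 5 were Syce3, Sycp1, Sycp2, Sycp3 and Cdk2. Syce3, a central element protein at chr15:89390174-89410503, ran from 0 through a median of 338 to 2022 CPM per high-score cell, from 42.3 through 1152 to 2574 CPM per matched cell and from 0 through 1179 to 3512 CPM per other cell. Summed it was 405 CPM, against 1048 and 1167 CPM, 2.88-fold below the others (2.69 to 3.08). Sycp1, the transverse filament, was 812 CPM, against 1618 and 1722 CPM, and Sycp3, the lateral element, 985 CPM, against 1566 and 1728 CPM.

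Spo11, which makes the meiotic breaks, ran from 0 through a median of 45 to 452 CPM per high-score cell, from 0 through 140 to 589 CPM per matched cell and from 0 through 161 to 964 CPM per other cell. Summed it was 55 CPM, against 166 and 180 CPM, 3.28-fold below the others (2.73 to 3.97). Of 33 retained genes for breaks and recombination, 12 were lower, 3 were higher and the rest were within the margin. Over all retained genes, 15.1% were lower and 9.31% higher. The median of the list was -0.38. Among the 12 were Meiob, a single-strand DNA binding protein (57.8 CPM, against 108 and 133 CPM), Hfm1, a crossover helicase (75.2 CPM, against 128 and 136 CPM), and Ankrd31, a regulator of break sites (49.8 CPM, against 102 and 102 CPM). Among the 3 higher genes were Mnd1, a meiotic recombination factor (59.2 CPM, against 41.7 and 36.5 CPM), and Rpa2 (280 CPM, against 132 and 102 CPM), a single-strand binding protein also used in replication. Apart from Spo11, these genes were singled out after their values were seen. The 3 genes of highest level on the list were within the margin against the other cells. Zcwpw1 was 570 CPM, against 710 and 828 CPM, and Tex15 320 CPM, against 356 and 419 CPM. Hsf2bp went the other way, at 256 CPM, against 167 and 185 CPM.

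**Figure D2:**
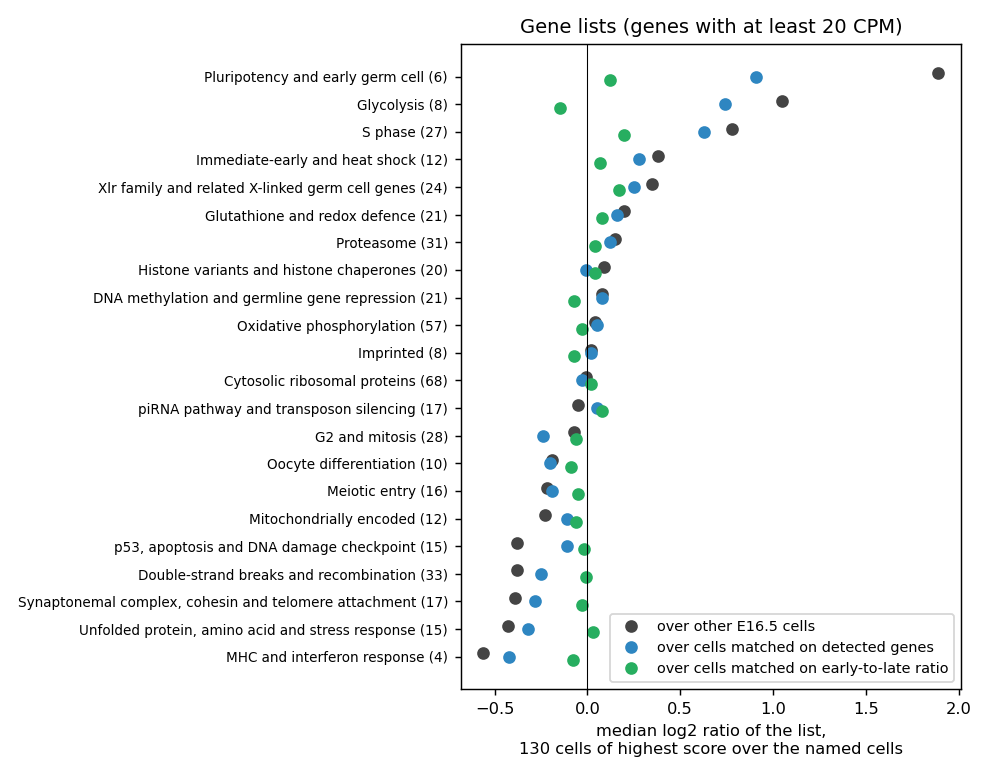
Median log2 ratio of each gene list (number of retained genes in brackets), for the high-score cells over the other E16.5 cells, over cells matched on detected genes and over cells matched on the early-to-late ratio. Pluripotency (1.89), glycolysis (1.05) and S phase (0.78) lie furthest right against the other cells. Against cells matched on the early-to-late ratio these are 0.12, -0.15 and 0.20. Listed genes that are part of the matched ratio, such as Ifitm2 of the pluripotency list, shift largely by construction. How much of each list's shift comes from such genes was not tested.

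The meiotic entry list had 20 genes, of which 16 were retained. Its summed level, with Stra8 included, was 7418 CPM in high-score cells, 6285 CPM in matched cells and 6558 CPM in the others. Most of the 16 retained genes did not follow Stra8, with 3 higher, 1 lower and a median of -0.22. These counts stand beside 9.31% of all retained genes higher and 15.1% lower. Besides Stra8 and Zglp1, the cohesin subunit Smc3 was higher, at 428 CPM, against 277 and 272 CPM, and Inca1, a cyclin-CDK inhibitor, was lower, at 188 CPM, against 258 and 337 CPM. Smc1b, a meiotic cohesin subunit that persists through prophase, was 2339 CPM, against 2917 and 3117 CPM, within the 1.5-fold margin.

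The gene with the largest ratio among the named lower genes was Gc, the vitamin D binding protein, at chr5:89417511-89457898. It ran from 0 through a median of 0 to 829 CPM per high-score cell, from 0 through 148 to 891 CPM per matched cell and from 0 through 155 to 1566 CPM per other cell. Summed it was 34.3 CPM, against 170 and 185 CPM, 5.38-fold below the others (4.28 to 6.87). Krt10, a keratin, was 18.8 CPM, against 69.6 and 82.1 CPM. Ift88, an intraflagellar transport protein, was 21.1 CPM, against 60.9 and 68.2 CPM, and Cep290, a centrosomal and ciliary protein, 45.6 CPM, against 114 and 137 CPM. Prps1, an X-linked enzyme of nucleotide synthesis, was 23.5 CPM, against 65.7 and 71.7 CPM. Tmem116, Snhg9, Cdkl2, Tsga10, Tsacc, Il18 and Morn5, also named lower genes, were between 2.93-fold and 3.33-fold below the other cells.

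Stress and surveillance genes gave mixed counts, beside 9.31% of all retained genes higher and 15.1% lower. Of 15 unfolded protein and amino acid response genes, 4 were higher and 4 lower. The 4 lower were the endoplasmic reticulum chaperones Hspa5 (516 CPM, against 997 and 1086 CPM) and Calr (479 CPM, against 978 and 963 CPM), with Atf4 and Sel1l. The 4 higher were Asns, the asparagine synthetase (71.9 CPM, against 34.5 and 20.2 CPM), with Psat1, Mthfd2 and Sdf2l1. Of 15 genes of the p53, apoptosis and checkpoint list, 1 was higher and 4 lower, among them Atr (156 CPM, against 216 and 265 CPM), the checkpoint kinase. Of 12 immediate-early and heat shock genes, 3 were higher and 2 lower, and of 4 MHC and interferon genes 0 were higher and 2 lower.

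The remaining lists are given by their counts, beside 9.31% of all retained genes higher and 15.1% lower. Cytosolic ribosomal protein genes had 3 of 68 higher and 1 lower with a median of -0.01, though Rps2 was 4946 CPM, against 2403 and 1860 CPM. Mitochondrially encoded genes had 0 of 12 higher and 1 lower, with a median of -0.23, and piRNA pathway genes 2 of 17 higher and 0 lower, with a median of -0.05. Oocyte differentiation genes had 3 of 10 higher, Dppa3 among them, and 1 lower, with a median of -0.19, and imprinted genes 1 of 8 in each direction, with a median of 0.02. Of the nuclear-retained RNAs, 2 were retained and neither passed the margin, with Malat1 at 1789 CPM, against 2673 and 2499 CPM.

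These levels were then set beside the stages of the series. Genes at least 3-fold apart between the E14.5 cells and the E16.5 cells that were neither high-score nor matched gave an early set of 311 genes (higher at E14.5) and a late set of 220 genes (higher at E16.5), without the scoring genes. Most of the other E16.5 cells helped to define the sets, so values against the matched cells, which did not, are given here. The early set had a median log2 ratio of 1.17 in high-score over matched cells, and the late set one of -1.24. The early set held 2.31% of the UMIs of high-score cells and 1.01% of those of matched cells, and the late set 1.15% and 2.23%. In the whole E14.5 library the shares were 3.26% for the early set and 0.585% for the late set, in a library of another depth.

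Per cell, the log2 ratio of early to late UMIs gave each cell a place between the stages. The high-score cells ran from -3.00 through a median of 0.97 to 2.59, against medians of -2.36 in matched cells and -2.37 in the other E16.5 cells. E14.5 cells had a median of 2.61 and E12.5 cells 4.06. The median of high-score cells therefore lay between the 2 later stages. The 5th percentile of E14.5 cells was -0.51, and 107 of the 130 high-score cells (82.3%, 74.6 to 88.4) were above it, against 19 of 130 matched cells (14.6%) and 477 of 5233 other cells (9.12%). Only 5 high-score cells lay within 0.25 of that value.

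**Figure D3:**
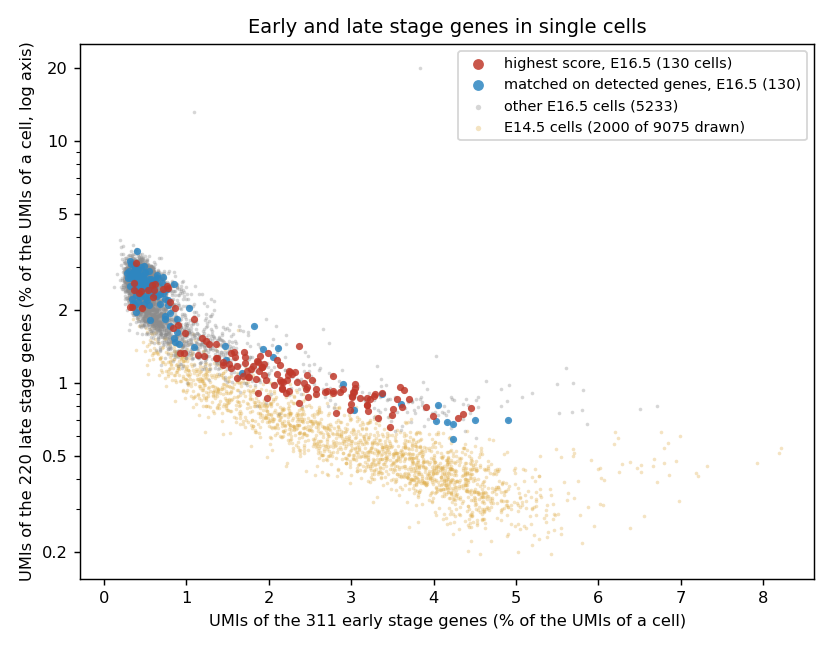
Share of each cell's UMIs in the 311 early stage genes (x axis, %) against the 220 late stage genes (y axis, %, log axis); red points are the high-score cells, blue the matched cells, grey the other E16.5 cells and yellow E14.5 cells. The high-score cells run from the dense group of E16.5 cells at the upper left towards the E14.5 cells, with a median of 2.1% early and 1.07% late, against 0.491% and 2.53% in matched cells.

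The high-score cells were a minority of the early-like E16.5 cells. They made up 18.3% of the 584 E16.5 cells above the E14.5 5th percentile. By bins of the log2 ratio, they were 0.301% of cells below -2, 3.05% from -1 to 0, 17.6% from 0 to 1, 41.9% from 1 to 2 (33.1 to 51.1) and 13.4% above 2. Their share was thus highest in the bin from 1 to 2 and lower in the cells nearest to the E12.5 values.

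The 107 high-score cells above the E14.5 5th percentile and the 23 below it are described apart. This split was made after the data were seen, and the genes given belong to the early or late set, so their difference restates the split. Stra8 was 1795 CPM in the 107 cells and 198 CPM in the 23, Rec8 164 CPM and 0 (0 of 257437 UMIs), and Dppa3 250 and 11.7 CPM. Spo11 was 39.6 CPM in the 107 cells and 167 CPM in the 23, Syce3 303 and 1154 CPM, and Gc 16.6 and 163 CPM. In the 23 cells these levels were nearer to those of the 4756 other E16.5 cells below that value, where Stra8 was 110 CPM, Spo11 195 CPM and Syce3 1264 CPM. The 23 cells owed their score mostly to Gstp1 and Gstp2, whose mean z-score was 3.08 in them, against 0.95 for the Xlr5 genes and 0.34 for Hist1h2ap. In the 107 cells the same means were 1.97, 1.45 and 2.29. The values over all 130 cells therefore describe mainly the 107. The Gstp z-scores of the 23 cells rest on 9 Gstp1 and 17 Gstp2 UMIs. When 130 cells were chosen on a random part of their UMIs, 81 were also high-score cells. Measured in the remaining UMIs, Gstp1 was 5.27-fold higher in the cells so chosen (3.88 to 7.05) and Gstp2 1.86-fold (0.492 to 4.97). Gstp2 had 59 UMIs in 52 of the 130 high-score cells (40%), and 96 UMIs in 96 of the other E16.5 cells (1.83%). Most cells with Gstp2 thus held a single UMI of it. Whether single UMIs placed some cells in the group was not tested.

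To see what differed besides the place between stages, the high-score cells were set against 130 other E16.5 cells of the same log2 early-to-late ratio, a comparison added after the data were seen. The 30 named genes all belong to the early or the late set, so their levels in this comparison are largely fixed by the matching and are given as a description. These ratio-matched cells held 2012066 UMIs. Of the 5434 genes, 69 (1.27%) were higher and 102 (1.88%) lower by 1.5-fold or more in the high-score cells. Among the 5121 retained genes outside both sets, 54 (1.05%) were higher and 76 (1.48%) lower by that margin, against 410 (8.01%) and 619 (12.1%) when the same genes were compared with all other E16.5 cells. Stra8 was 1602 CPM in high-score cells and 1335 CPM in ratio-matched cells (1.20-fold, 1.14 to 1.26), Rec8 144 and 140 CPM, Msx1 101 and 95.9 CPM, Spo11 55 and 52.7 CPM, and Syce3 405 and 399 CPM. The early set had a median log2 ratio of 0.04 and the late set of -0.07, as the matching fixed. Tk1 remained at 69.5 CPM against 48.2 CPM and Rhox5 at 289 against 220 CPM, both within the 1.5-fold margin, while Ift88 was 21.1 against 36.3 CPM, past it.

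**Figure D4:**
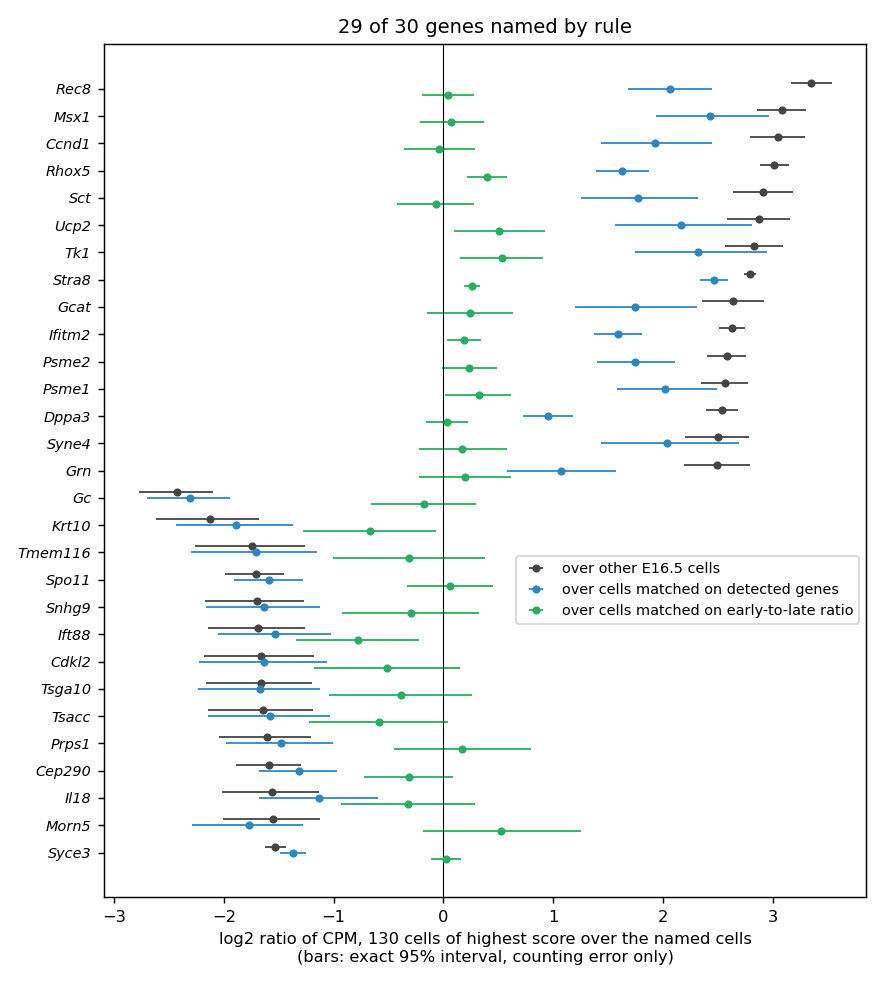
Log2 ratio of CPM in the high-score cells over the other E16.5 cells (black), over cells matched on detected genes (blue) and over cells matched on the early-to-late ratio (green) for 29 of the 30 named genes; bars are exact 95% intervals for counting error. The ratios of Rec8 are 3.35, 2.06 and 0.04 and those of Gc -2.43, -2.31 and -0.18; the green points lie near 0 largely by construction, since these genes are part of the matched ratio.

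Among genes with at least 50 CPM in either group, the largest ratios over the ratio-matched cells were those of Meaf6, a subunit of histone acetyltransferase complexes (54 against 30.8 CPM, 1.75-fold, 1.28 to 2.43), Polr3k, an RNA polymerase III subunit (62.5 against 36.3 CPM, 1.72-fold), and Ddx25, a germ cell RNA helicase (107 against 64.6 CPM, 1.66-fold). The largest differences downward were those of Terf2ip, a telomere protein (7.05 against 65.6 CPM), Tmsb4x, an actin-binding peptide (16 against 73.1 CPM), and Gng13 (31 against 61.6 CPM). These rested in part on single cells of the ratio-matched group, since 1 cell held 80.3% of its Terf2ip UMIs, 1 cell 36.1% of its Tmsb4x UMIs and 1 cell 23.4% of its Gng13 UMIs. Ldha, lactate dehydrogenase A, was 36.2 against 59.1 CPM, with at most 8.4% of its UMIs in 1 cell. Each of these lower genes reached 50 CPM in the ratio-matched cells and not in the high-score cells. Meaf6 and Polr3k reached it in the high-score cells and not in the ratio-matched cells. All these genes were picked for large ratios, and the interval given does not allow for that choice. In the other E16.5 cells Ldha was 12.7 CPM and Gng13 17.3 CPM, so both were higher in the high-score cells than there. Terf2ip (20.9 CPM) and Tmsb4x (34.3 CPM) were lower in the high-score cells than in the other E16.5 cells.

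The scoring genes were also followed along the early-to-late ratio in all cells of each stage, as a description. At E16.5, Hist1h2ap was 174 CPM in cells below -2, 204 CPM from -1 to 0, 674 CPM from 0 to 1, 1581 CPM from 1 to 2 and 574 CPM from 2 to 3. At E14.5 the same bins held 17.9, 8.7, 15, 61.6 and 95 CPM. Gstp1 at E16.5 was 4.5 CPM below -2 and 65.1 CPM from 2 to 3, and at E14.5 it was at most 8.77 CPM in any bin. Stra8 was 1823 CPM from 1 to 2 at E16.5 and 1814 CPM at E14.5, but 900 CPM from 2 to 3 at E16.5 and 1937 CPM at E14.5. The E14.5 and E16.5 cells came from different libraries, so stage and library cannot be told apart.

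**Figure D5:**
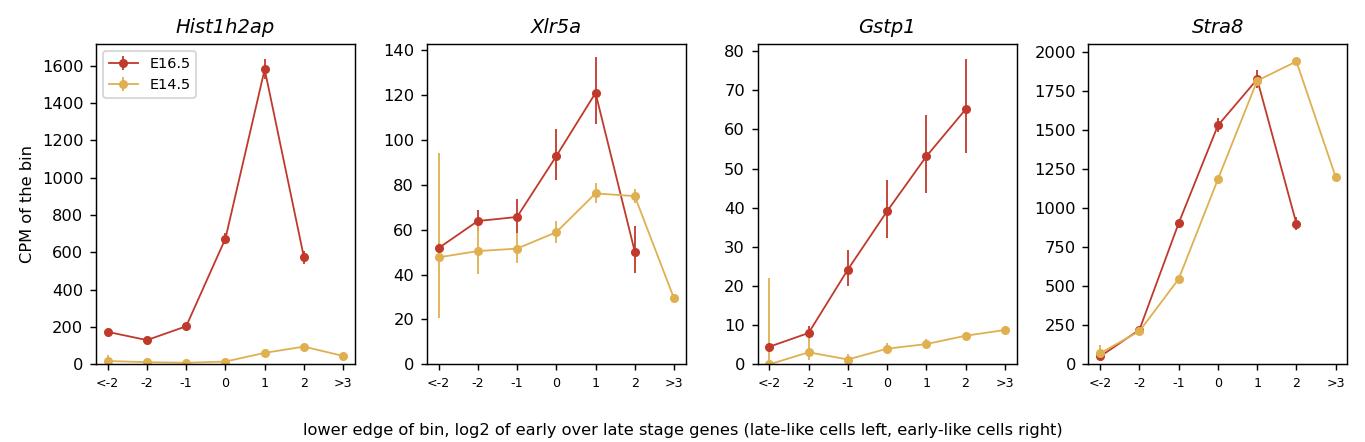
Level (CPM with exact 95% intervals) of Hist1h2ap, Xlr5a, Gstp1 and Stra8 in bins of the log2 ratio of early to late stage genes, for all E16.5 cells (red) and all E14.5 cells (yellow). Hist1h2ap reaches 1581 CPM in the E16.5 bin from 1 to 2, against 61.6 CPM at E14.5, while Stra8 stands at 1823 and 1814 CPM in that bin.

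Against 130 E14.5 cells of the same ratio, also added after the data were seen, 581 of the 5434 genes (10.7%) were higher and 297 (5.47%) lower by that margin in the high-score cells. Hist1h2ap, which was used in the choice, stood at 1530 CPM against 41.7 CPM, and Gstp1 at 76.6 against 5.61 CPM. The genes outside the score given here were picked for large ratios. Hmga1, an architectural chromatin protein, was 55.4 CPM, against 9.62 CPM in those E14.5 cells and 19.4 CPM in the other E16.5 cells. Jund, an AP-1 subunit, was 106 CPM, against 23.3 CPM in those E14.5 cells. AY036118 was 256 against 69.8 CPM, with 271 CPM in the other E16.5 cells and 69.8 CPM in the whole E14.5 library. Phlda2, an imprinted gene, was 50.3 against 15.2 CPM, and Dppa3 221 against 68.2 CPM. Phlda2 was 9.87 CPM in the other E16.5 cells, under the level filter, and so is not among the 581. Hmga1 and Phlda2 reached 50 CPM in the high-score cells and not in the E14.5 cells of the same ratio. The whole E14.5 library had 106 CPM of Jund, 240 CPM of Phlda2 and 426 CPM of Dppa3, so these 3 were not lower at E14.5 as a whole. Of genes lower in the high-score cells, Sfi1, a centrosomal protein, was 21.6 against 56.9 CPM. The E14.5 cells were shallower, with a median of 9386 UMIs, against 15601 in the high-score cells.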

How the data were processed

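Single-cell RNA was measured in 1 library per stage of sorted female germ cells. The Chromium kit, version 2, reads 3' ends, per the labels' protocols. The submitters' processing notes name Cell Ranger 2.0.0, FastQC and the build mm10 (GRCm38). The deposited table (14133 genes, 19144 cells) holds natural log values: each UMI count was divided by the total of its cell, multiplied by 10000, increased by 1 and logged. Reversing these steps gave whole UMIs in 100.0% of cells, within 0.01 (largest distance 0.00024). No source used here gives the filters on cells. The members and the gene lists were chosen with earlier results of these data known.

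UMIs were summed per group of cells and expressed as CPM. CPM carry exact Poisson 95% intervals, ratios with exact conditional intervals, and shares of cells with exact (Clopper-Pearson) intervals. All cover counting error only. A gene needed 20 CPM over all E16.5 cells and was counted as higher or lower at 1.5-fold. The 6 scoring genes were left out. Each high-score cell, in order of score, took the unused cell nearest in detected genes. Named genes were the 15 of largest and the 15 of smallest ratio to the other E16.5 cells, with at least 50 CPM in the higher group and the same direction against matched cells, without scoring, mitochondrial, ribosomal protein, haemoglobin, Gm-numbered and Rik genes. This rule has no filter over all E16.5 cells: 10 of the 15 higher genes were under the 20 CPM filter and were named through their level in the high-score cells alone. In each list, the 3 genes of highest level and the 1 of largest ratio could be named. Of the 30 named genes, 1 is not reported here. Ratio-matched groups were built likewise on the early-to-late ratio. Scrublet as built into scanpy 1.11.5 marked doublets at an expected rate of 6%. It marked 29 E16.5 cells in all, so doublets may remain, and marked cells were kept except in 1 alternative. Coordinates are those of RefSeq GRCm38.p6, and of GENCODE M21 for Hist1h2ap. Calculations used Python 3.11.15, numpy 2.4.6, scipy 1.17.1 and pandas 2.3.3, and the ratio and interval steps were tested on simulated data. Alternatives changed the cells chosen, the score, the depth, the scaling, the summary, the filter and the fold.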

Additional observations from a re-analysis of the deposited data

How the results depend on the processing

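No paired analysis was possible because each stage has 1 library and no result comes from a test. The counts over the other E16.5 cells (506 higher, 823 lower) and over the matched cells (478 higher, 811 lower) stayed within 1.5 times when 65 cells were taken, when 1 family was left out of the score, when cells were chosen on a random part of their UMIs and measured in the rest, when marked doublets and cells with pregranulosa markers were left out, with the mean over cells of CPM, with median-of-ratios scaling, and with other matchings. They moved further as follows, over the other cells and then over the matched cells. With the score from thinned cells there were 277 higher and 351 lower, then 268 and 387. With 260 cells the lower genes were 467, then 472. With differences of mean natural log values there were 98 higher and 18 lower, then 69 and 18. With no filter (14127 genes) there were 3638 and 2835, then 2544 and 3459. With at least 50 CPM (2924 genes) there were 237 and 366, then 212 and 326. With 2-fold for a call there were 174 and 269, then 124 and 259. The last 3 change the genes retained or the margin by construction; for the others the cause was not tested. With the 23 high-score cells under the E14.5 5th percentile alone, added after the data were seen, 319 genes were higher and 601 lower.

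The named genes were picked for extreme ratios, so a direction kept under an alternative is no sign of stability. In those 23 cells 18 of 30 were counted as keeping it. Ccnd1, Ucp2 and Tk1 are among these 18 only because their 0 UMIs were set to 3 counts. Their measured level in the 23 cells was 0, against 9.5, 8.2 and 9.76 CPM in the other cells. There the log2 ratio to the other cells had a bound of -0.27 for Rec8 and of -0.56 for Psme1, each with 0 UMIs set to 3 counts, and turned to -0.62 for Msx1, -0.62 for Rhox5, -1.16 for Sct, -0.23 for Stra8, -1.79 for Ifitm2, -1.71 for Dppa3, -0.34 for Syne4, 0.16 for Snhg9, 0.32 for Prps1 and 0.50 for Morn5. The list medians turned to -0.76 for pluripotency and early germ cell genes and -0.45 for glycolysis. The 23 cells hold 257437 UMIs, and Msx1, Sct, Dppa3 and Syne4 had 2, 1, 3 and 2 UMIs in them. Without a filter, the median of the replication-dependent histone list turned to 0.30 over 54 genes. Past 1.5-fold in either direction were 12 of 30 named genes by mean natural log values, 10 of 30 in the 23 cells and 30 of 30 otherwise. Among those 10, Msx1, Rhox5, Sct, Ifitm2 and Dppa3 were past it in the opposite direction, lower than in the other cells.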
